A study of Mus musculus with 34 samples.

Results

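The genes described are those of the ephrin, semaphorin, slit and netrin guidance systems in J1 mESCs (mouse embryonic stem cells), which need LIF in serum to stay undifferentiated. Members were taken by gene symbol alone, as all ephrins and Eph receptors, class 3 to 7 semaphorins, plexins, neuropilins, slits, robos, netrins and Unc5 receptors, and 68 of the 23366 symbols in the deposited table belong to these families. RNA-seq was available for 4 libraries of the same line, namely 2 of cells in serum/-LIF and 2 of cells in serum/-LIF + Royalactin, given the purified honey bee protein Royalactin at 0.5 mg/ml. Cells of both groups were grown without LIF in serum on gelatin, at passage 40 by the sample labels and passage 10 by the study's text. The cells come from a single line, and nothing in the labels says that replicates were separate derivations, so the p-values measure the spread between these libraries only. Total RNA was depleted of ribosomal RNA and sequenced for 75 cycles. No serum/+LIF library was analysed here, so all comparisons are between cells without LIF that did or did not receive Royalactin.

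Guidance cues were first described as signals that steer growing axons. Ephrins are ligands bound to the cell surface, attached by a lipid anchor in the A class and by a transmembrane segment in the B class, and they bind Eph receptor tyrosine kinases on neighbouring cells. Semaphorins signal through plexins, and most secreted class 3 semaphorins need a neuropilin as co-receptor. Secreted slits bind robo receptors, and secreted netrins bind DCC, neogenin and the Unc5 receptors. The same families act outside the nervous system, in sorting of cells, in blood vessel growth and in the early embryo.

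Values are read counts per gene that the authors divided by a size factor per library (normalized counts). Differences were tested with limma on log2(normalized count + 1) over the 12993 genes whose normalized counts averaged at least 10. Log2 fold changes are serum/-LIF + Royalactin over serum/-LIF on that scale, which understates changes of weakly expressed genes. The selection limits are those named in the study's methods, p under 0.05 with a change of at least 2-fold, and were applied to unadjusted limma p-values. An adjusted p-value is that of limma after Benjamini-Hochberg adjustment over all tested genes. Reads counted on genes ranged from 14737796 to 17597818 over the libraries, and Rn45s, the ribosomal RNA precursor, took 21.6% to 46.6% of them in serum/-LIF and 9.08% to 38.4% in serum/-LIF + Royalactin. The defining markers of the labelled cells were present, with Pou5f1 at 4996 to 7453 normalized counts and all 10 pluripotency markers detected in every library.

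Of the 68 guidance genes, 49 passed the filter on low values and 19 did not. Among the 49, 6 passed the selection limits (12.2%), against 7.13% of all tested genes. Ntn1, Sema4b and Epha4 had higher values with Royalactin and Sema3c, Sema6a and Epha1 had lower values, so the 6 were split 3 and 3. Past the same limits were 3.52% of all tested genes in the higher and 3.61% in the lower direction. The unadjusted limma p-value was under 0.05 for 8 of the 49, against 9.34% of all tested genes. Ntn1 alone among the 49 had an adjusted p-value under 0.05, a limit passed by 0.493% of all tested genes. The groups did not overlap, with both Royalactin values above or both below those of serum/-LIF, for 21 of the 49 (42.9%), against 38.6% of all tested genes. Of these 21, 7 were higher and 14 lower with Royalactin, against 19.7% and 18.9% of all tested genes. The median log2 fold change of the 49 was -0.19, against -0.0076 for all tested genes. Without serum/-LIF replicate 1 this median was 0.072 and without serum/-LIF replicate 2 it was -0.67. The number past the selection limits was 9 without serum/-LIF replicate 1 (14.8% of all tested genes) and 13 without serum/-LIF replicate 2 (6.97% of all). It was 6 without Royalactin replicate 1 (3.29% of all) and 4 without Royalactin replicate 2 (4.01% of all). The median over the families thus changed sign with the serum/-LIF library that was left out, and 25 of the 49 genes changed sign with at least 1 of the 4 libraries left out. Ntn1, Sema3c, Sema4b and Sema6a had values past the limits in each of these 4 fits, where the spread comes only from the group that keeps 2 libraries and the lone library is assumed to vary alike. Epha2, Sema3a, Sema4d and Sema4g also passed them without serum/-LIF replicate 1. Efna1, Efna2, Efna5, Ephb4, Plxnb1, Plxnb2 and Unc5b did so without serum/-LIF replicate 2, and Sema3e without Royalactin replicate 1. In bulk RNA, fewer cells of a type and less RNA per cell cannot be told apart.

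**Figure D1:**
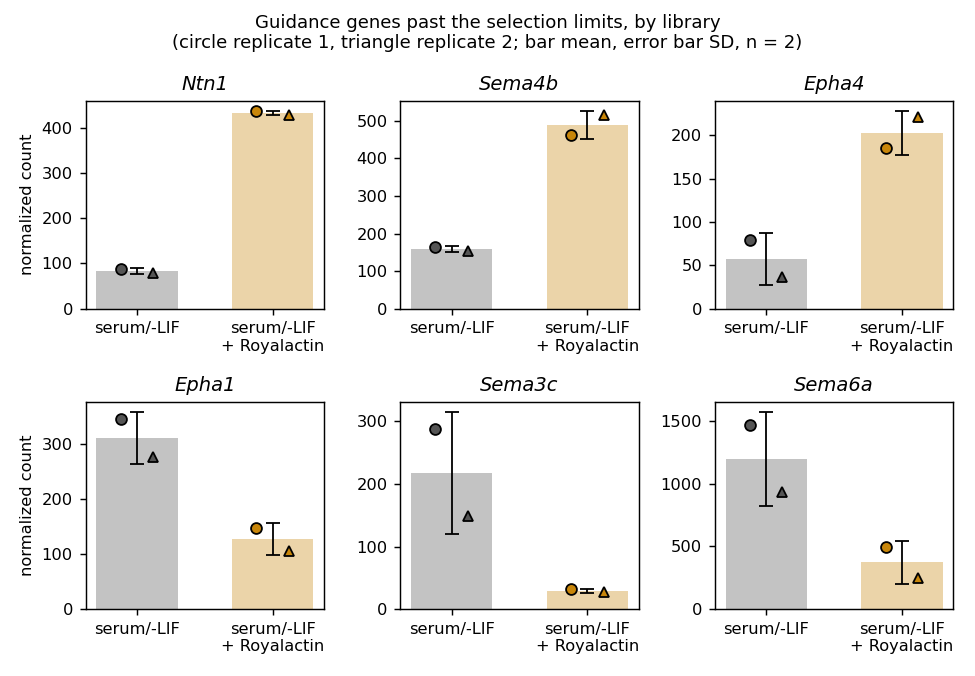
Normalized counts of the 6 guidance genes past the selection limits, with 1 panel per gene and a linear vertical axis from 0. Bars are group means with SD (n = 2), circles are replicate 1 and triangles replicate 2. In each panel the groups do not overlap, which the choice of genes by p-value and fold favours. The Ntn1 libraries sit at 88.3 and 78.7 in serum/-LIF and at 436.5 and 429.5 with Royalactin.

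The netrins held the clearest difference. Ntn1 encodes netrin-1, the secreted founding member of the family, and lies on chromosome 11 (68022866 to 68214325 of mm9, minus strand). Its normalized counts in replicates 1 and 2 were 88.3 and 78.7 for serum/-LIF, and 436.5 and 429.5 for serum/-LIF + Royalactin. Replicates of each group were close together and the groups were far apart. Ntn1 rose 5.19-fold between the means, from 83.5 ± 6.79 to 433 ± 4.96 (SD, n = 2), or by 2.36 on the log2 scale with a standard error of 0.43 (adjusted p = 0.0276 by limma). When 1 library was left out the log2 fold change stayed between 2.28 and 2.45, and the limma adjusted p-value was 0.166 without serum/-LIF replicate 1, 0.327 without serum/-LIF replicate 2, 1.00 without Royalactin replicate 1 and 0.975 without Royalactin replicate 2. With 3 libraries no gene of the table passed an adjusted p-value of 0.05. None of the 75-base tiles of Ntn1 exons matched elsewhere, and 2.02% of its exon bases overlap another transcript of the same strand.

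The other netrins were weak. Ntn3 had 24.1 and 44.5 normalized counts in serum/-LIF and 17.1 and 6.88 with Royalactin, with a log2 fold change of -1.50 that did not pass the limits (adjusted p = 0.736 by limma). Ntn4 had 13 reads in serum/-LIF replicate 1 and 0 in the other libraries, and Ntn5 had 9 reads in serum/-LIF + Royalactin replicate 1 and 0 in the others. Per kilobase of exon Ntn1 was the highest netrin in every library, and its mean level was 13.3 normalized counts in serum/-LIF and 69.0 with Royalactin.

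Of the netrin receptors in the rule, Unc5b was by far the highest per kilobase. Its normalized counts were 988 and 419 in serum/-LIF and 591 and 379 with Royalactin. The serum/-LIF libraries enclosed Royalactin replicate 1, and the log2 fold change of -0.44 did not pass the limits (adjusted p = 0.806 by limma). Without serum/-LIF replicate 1 it was 0.17. Unc5a, Unc5c and Unc5d each had at most 21 reads in any library and were not tested. The 2 classical netrin receptors outside the rule were looked up after the Ntn1 values were known. Dcc, the attractive receptor of netrin-1, had 14.7 and 33.1 normalized counts in serum/-LIF and 3.02 and 6.2 with Royalactin (adjusted p = 0.721 by limma). Neo1, which encodes neogenin, had 591 and 476 in serum/-LIF and 912 and 544 with Royalactin (adjusted p = 0.779 by limma).

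Of the 9 tested Eph receptors, Epha4 and Epha1 passed the selection limits (22.2%, against 7.13% of all tested genes), in opposite directions. Epha4 encodes a receptor that binds ephrins of both classes. It had 78.9 and 36.2 normalized counts in serum/-LIF and 185 and 221 with Royalactin. The Royalactin libraries were both the higher ones, 3.53-fold between the means, with a log2 fold change of 1.90 ± 0.57 (SE, adjusted p = 0.233 by limma). The unadjusted limma p-value was 0.0570 without Royalactin replicate 1 and 0.0879 without Royalactin replicate 2. Epha4 lies on chromosome 1 (77363760 to 77511663 of mm9, minus strand).

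Epha1, the first Eph receptor to be described, lies on chromosome 6 (42308486 to 42323267, minus strand). It had 345 and 277 normalized counts in serum/-LIF and 148 and 107 with Royalactin. Both Royalactin libraries were lower, 2.45-fold between the means, with a log2 fold change of -1.29 ± 0.44 (SE, adjusted p = 0.320 by limma). The unadjusted limma p-value was 0.0527 without serum/-LIF replicate 1 and 0.105 without Royalactin replicate 2. Of the Epha1 exon bases, 4.89% overlap exons of Zyx on the opposite strand, and whether counting used the strand is not given in the sources used here. Of its 75-base exon tiles, 7.95% also matched elsewhere with up to 2 mismatches.

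Promoters were searched for 3 motifs on both strands, a STAT site (TTCCNGGAA), the estrogen-related receptor site (AAGGTCA) and the TEAD site (GGAATG). The GGAA that closes the STAT site also opens the TEAD site, so those can overlap. The search used the 250 bases before each RefSeq start, in the sequence of GRCm38.p6, and the windows printed were placed on mm9 by exact match. The windows of Epha4 and Epha1 are shown because these receptors passed the limits in opposite directions. Capitals mark a motif, and the Epha4 window held none.
Epha4, chr1:77511664-77511913, minus strand: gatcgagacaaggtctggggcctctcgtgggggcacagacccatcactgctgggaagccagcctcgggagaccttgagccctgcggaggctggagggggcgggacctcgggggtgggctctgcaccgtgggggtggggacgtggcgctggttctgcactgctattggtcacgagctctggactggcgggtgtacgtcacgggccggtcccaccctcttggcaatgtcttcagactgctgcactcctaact
Epha1, chr6:42323268-42323517, minus strand: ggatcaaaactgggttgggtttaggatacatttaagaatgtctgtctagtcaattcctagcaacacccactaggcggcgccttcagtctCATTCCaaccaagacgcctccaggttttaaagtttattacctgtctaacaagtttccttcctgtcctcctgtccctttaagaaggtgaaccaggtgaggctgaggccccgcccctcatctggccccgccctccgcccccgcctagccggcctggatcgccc
The Epha1 window held the TEAD letters on its reverse strand, from base 90 of the printed run. Of all 32851 windows, 12.6% held the TEAD letters, and 8 of 75 windows of guidance genes did (10.7%).

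Epha2 was the highest Eph receptor per kilobase of exon, with 201 normalized counts per kb in serum/-LIF and 357 with Royalactin. In the mean over the 4 libraries it was also the highest of all 68 guidance genes, whereas in serum/-LIF Sema3e was at 208. Its normalized counts were 1262 and 619 in serum/-LIF and 1639 and 1703 with Royalactin. The groups did not overlap, but the log2 fold change of 0.92 (standard error 0.35) stayed under the 2-fold limit (adjusted p = 0.404 by limma). Without serum/-LIF replicate 1 the log2 fold change was 1.43 and past the limits. Epha7 and Epha8 did not pass the limits, with log2 fold changes of -0.08 and -0.03, whose signs changed with 1 library left out. For Epha8 the replicates of each group differed widely, at 49.5 and 1.04 in serum/-LIF and 25.1 and 2.75 with Royalactin.

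The 4 tested EphB receptors did not pass the limits, with log2 fold changes from -0.55 to 0.75. Ephb4, the highest of them per kilobase and known as the partner of ephrin-B2 in vessels, had 586 and 246 normalized counts in serum/-LIF and 235 and 285 with Royalactin. The Royalactin libraries lay at or near the lower serum/-LIF library, and without serum/-LIF replicate 1 the log2 fold change was 0.072 in place of -0.55. Ephb3 was the only EphB receptor whose groups did not overlap, with 100.3 and 48.6 normalized counts in serum/-LIF and 113 and 124 with Royalactin. Ephb2 and Ephb6 had overlapping groups, with log2 fold changes of -0.12 and -0.13, whose signs also changed with 1 library left out.

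All 8 ephrins were tested, and 0 passed the selection limits or had an unadjusted limma p-value under 0.05. In the A class, 4 of 5 had both Royalactin libraries below both serum/-LIF libraries, against 18.9% of all tested genes. Without overlap of the groups, leaving out 1 library cannot change the sign of a log2 fold change. Efna1 had 46.8 and 14.5 normalized counts in serum/-LIF and 1.01 and 4.82 with Royalactin, which is 1 and 7 reads. Its log2 fold change of -2.99 was the lowest of the 49 and had a standard error of 1.63 (adjusted p = 0.625 by limma). Efna5 had a log2 fold change of -2.06 (adjusted p = 0.547 by limma), Efna2 of -1.36 and Efna3 of -0.71. Of the Efna5 exon bases, 59.9% overlap another gene model of the same name and strand, and how reads there were counted is not given. Efna4 was the highest ephrin-A per kilobase and overlapped between groups, with 152 and 44.5 normalized counts in serum/-LIF and 90.5 and 97.7 with Royalactin. Its log2 fold change was 0.19, and -0.69 without serum/-LIF replicate 2. Efna1, Efna3 and Efna4 lie together within 66296 bases of chromosome 3, and 14.1% of the exon bases of Efna3 and 10.5% of those of Efna4 overlap noncoding transcripts of the opposite strand.

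Among the ephrins of the B class, Efnb2 was the highest per kilobase, with 625 and 265 normalized counts in serum/-LIF and 394 and 284 with Royalactin. The Royalactin values lay between the serum/-LIF values, and the log2 fold change was -0.28 (adjusted p = 0.887 by limma), or 0.34 without serum/-LIF replicate 1. Efnb1 and Efnb3 had overlapping groups, with log2 fold changes of 0.88 and -0.35. With 1 library left out they ranged from -0.24 to 2.01 for Efnb1 and from -0.96 to 0.27 for Efnb3, so both changed sign. Every one of the 8 ephrins had a higher value in serum/-LIF replicate 1 than in replicate 2.

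**Figure D2:**
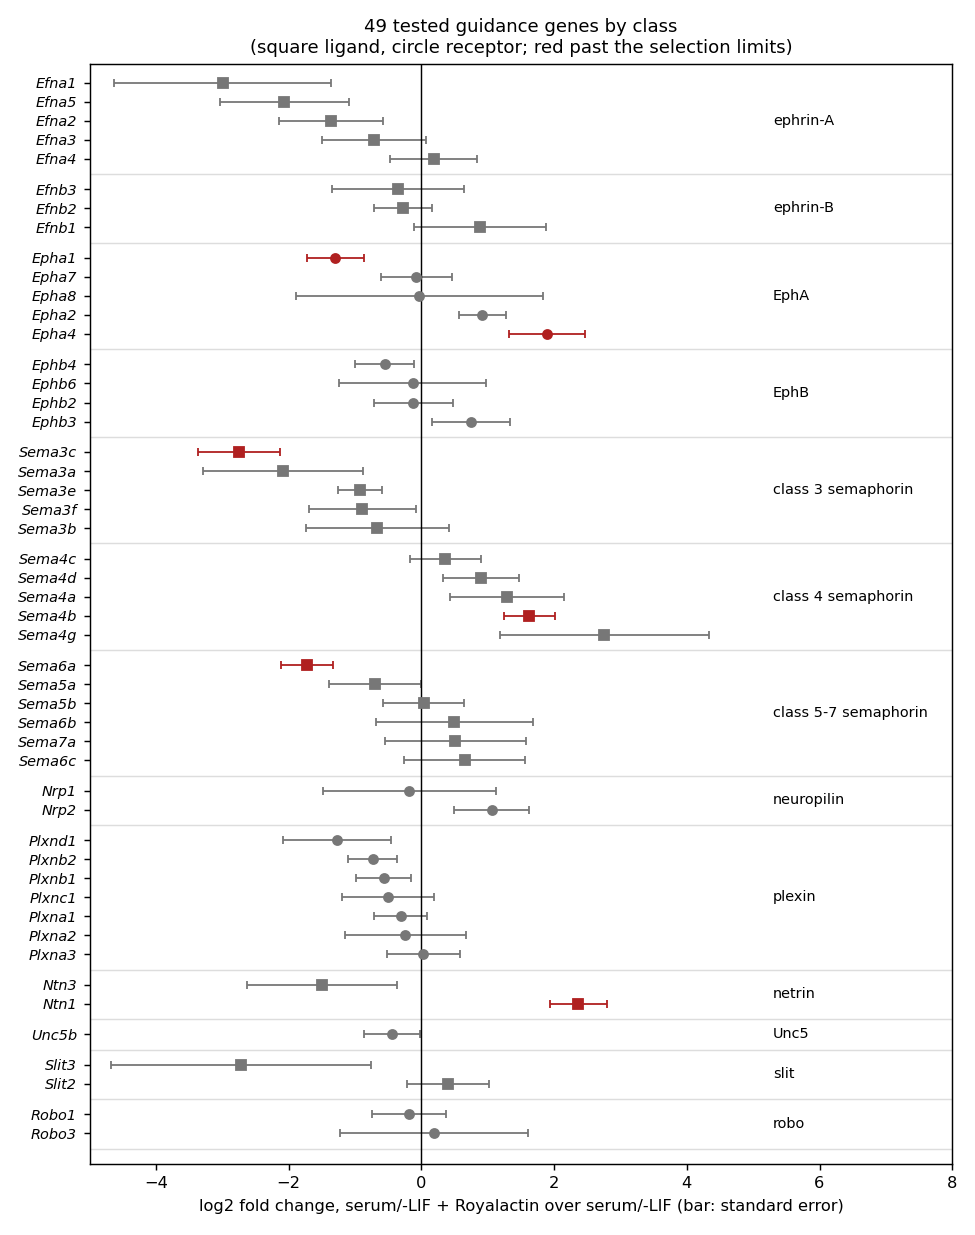
Log2 fold change of the 49 tested guidance genes, serum/-LIF + Royalactin over serum/-LIF, with standard errors, grouped by class. Squares are ligands, circles are receptors and red marks the 6 genes past the selection limits, and the 5 class 3 semaphorins lie left of 0 while the 5 class 4 semaphorins lie right of 0, where Sema3b, Sema4d and Sema4g change sign without serum/-LIF replicate 2.

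Of the 16 tested semaphorins, 3 passed the selection limits (18.75%), against 7.13% of all tested genes. In class 3, the secreted semaphorins, all 5 tested genes had negative log2 fold changes, from -2.75 to -0.66, and in 4 of the 5 the groups did not overlap (18.9% of all tested genes did so in the lower direction). In class 4, whose members are transmembrane proteins, all 5 tested genes had positive log2 fold changes, from 0.36 to 2.76, and in 2 of the 5 the groups did not overlap (19.7% of all in the higher direction). In each class 1 gene passed the selection limits, Sema3c and Sema4b. Without serum/-LIF replicate 2, Sema3b (0.31), Sema4d (-0.04) and Sema4g (-0.21) changed sign, and with any other library left out no member of either class did. Whether the classes differ was not tested.

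Sema3c, a secreted semaphorin with a known role in the outflow tract of the heart, had 286 and 148 normalized counts in serum/-LIF and 32.2 and 27.5 with Royalactin. The Royalactin libraries were close to each other and far below both serum/-LIF libraries, 7.27-fold between the means. The log2 fold change was -2.75 ± 0.62 (SE, adjusted p = 0.0873 by limma), and from -3.22 to -2.28 with each library left out. Sema3c lies on chromosome 5 (17080099 to 17236086, plus strand).

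Sema3e, whose product binds plexin-D1 without a neuropilin, was the highest class 3 semaphorin per kilobase, with 1642 and 1504 normalized counts in serum/-LIF and 1088 and 632 with Royalactin. The log2 fold change of -0.92 (standard error 0.33) stayed under the 2-fold limit (adjusted p = 0.368 by limma). Without Royalactin replicate 1 it was -1.31 and past the limits. Sema3a had 21.4 and 69.3 normalized counts in serum/-LIF and 16.1 and 4.13 with Royalactin, a log2 fold change of -2.08 (adjusted p = 0.646 by limma). Of its exon tiles 15.7% also matched elsewhere in the genome, so its counts are uncertain. Sema3f and Sema3b had log2 fold changes of -0.89 and -0.66.

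Sema4b lies on chromosome 7 (87331727 to 87371280, plus strand). It had 163 and 152 normalized counts in serum/-LIF and 464 and 516 with Royalactin. Both Royalactin libraries were higher, 3.11-fold between the means, and the spread within groups was small. The log2 fold change was 1.63 ± 0.38 (SE, adjusted p = 0.107 by limma), and from 1.55 to 1.71 with each library left out. The promoter window of Sema4b is shown because it is the only window of the genes past the limits with an estrogen-related receptor site, which is in capitals from base 8.
Sema4b, chr7:87331506-87331755, plus strand: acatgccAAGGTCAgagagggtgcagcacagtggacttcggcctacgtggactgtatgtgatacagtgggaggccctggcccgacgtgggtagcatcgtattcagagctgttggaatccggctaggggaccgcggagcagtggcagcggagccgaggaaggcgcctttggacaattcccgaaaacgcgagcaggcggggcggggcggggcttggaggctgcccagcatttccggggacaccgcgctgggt
The same letters were in 4 of 75 windows of guidance genes (5.33%) and in 4.08% of all windows, and the STAT site was in 0 of 75 and in 0.913% of all. A second RefSeq start of Sema4b held no motif. RefSeq windows were found for 59 of the 68 genes. Ntn1 had no entry.

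The other class 4 semaphorins did not pass the limits. Sema4a had 20.1 and 20.7 normalized counts in serum/-LIF and 46.3 and 56.4 with Royalactin, a log2 fold change of 1.29 without overlap of the groups (adjusted p = 0.700 by limma). Sema4g had the largest log2 fold change of the class, 2.76, which rests on 0 reads in serum/-LIF replicate 2 and was -0.21 without that library. Its other libraries held 45.4 to 60.2 normalized counts. Sema4d, the ligand of plexin-B1, had 265 and 71.4 in serum/-LIF and 316 and 210 with Royalactin (log2 fold change 0.90), and Sema4c had a log2 fold change of 0.36.

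Sema6a, a transmembrane semaphorin that binds class A plexins, was second to Sema3e among the semaphorins per kilobase in the mean over the 4 libraries, and below Sema4b with Royalactin. Its normalized counts were 1463 and 935 in serum/-LIF and 494 and 253 with Royalactin. Both Royalactin libraries were lower, 3.21-fold between the means, with a log2 fold change of -1.72 ± 0.39 (SE, adjusted p = 0.0873 by limma). It ranged from -2.21 to -1.24 with each library left out. The other 5 tested semaphorins of classes 5, 6 and 7 had overlapping groups and log2 fold changes from -0.70 for Sema5a to 0.65 for Sema6c. Each of the 5 changed sign with at least 1 library left out, with Sema5a at 0.058 without serum/-LIF replicate 1 and Sema6c at -0.18 without Royalactin replicate 1.

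Of the semaphorin receptors, 7 of 9 plexins and both neuropilins were tested, and 0 passed the limits or had an unadjusted limma p-value under 0.05. Plxna1, the highest plexin per kilobase, had 1903 and 799 normalized counts in serum/-LIF and 1225 and 805 with Royalactin. The serum/-LIF libraries enclosed both Royalactin libraries (log2 fold change -0.31, limma adjusted p = 0.859), and without serum/-LIF replicate 1 the log2 fold change was 0.31. Of its exon bases 10.8% overlap a noncoding transcript of the opposite strand. Plxnb2, next in level, had 1447 and 703 in serum/-LIF and 551 and 668 with Royalactin, a log2 fold change of -0.73 without overlap (adjusted p = 0.587 by limma). Plxnd1, the receptor of Sema3e, had 72.2 and 60.0 in serum/-LIF and 44.3 and 15.8 with Royalactin, a log2 fold change of -1.28 (adjusted p = 0.680 by limma). Plxnb1, Plxnc1, Plxna2 and Plxna3 had overlapping groups and log2 fold changes from -0.57 to 0.03, and those of Plxna2 and Plxna3 changed sign with 1 library left out.

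Nrp2, a co-receptor for class 3 semaphorins, had 65.5 and 59.0 normalized counts in serum/-LIF and 116 and 147 with Royalactin. Both Royalactin libraries were higher, 2.11-fold between the means, with a log2 fold change of 1.06 ± 0.56 (SE, adjusted p = 0.615 by limma). Nrp1, the other neuropilin, was weak in all libraries, at 7.04 to 24.8 normalized counts, with a log2 fold change of -0.18 that changed sign with 1 library left out.

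The slit and robo genes did not pass the limits. Slit2 had 49.5 and 145 normalized counts in serum/-LIF and 119 and 107 with Royalactin, and the serum/-LIF libraries enclosed the others (log2 fold change 0.41, limma adjusted p = 0.883). Without serum/-LIF replicate 1 it was -0.36. Slit3 had 13.4 and 20.7 in serum/-LIF and 0 and 6.2 with Royalactin, a log2 fold change of -2.72 with a standard error of 1.95 (adjusted p = 0.727 by limma). Robo1, the highest robo per kilobase, had 245 and 125 in serum/-LIF and 253 and 92.9 with Royalactin, so that its replicates differed more than its groups (log2 fold change -0.19). The value was 0.29 without serum/-LIF replicate 1 and 0.53 without Royalactin replicate 2. Robo3 had 7.25 to 16.1 normalized counts over the 4 libraries.

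The 19 guidance genes below the filter were Epha3, Epha5, Epha6, Epha10, Ephb1, Ntn4, Ntn5, Plxna4, Plxnb3, Robo2, Robo4, Sema3d, Sema3g, Sema4f, Sema6d, Slit1, Unc5a, Unc5c and Unc5d. None of them exceeded 24.1 normalized counts in any library, and Plxnb3 had 0 reads in all 4. Epha10 had no read in either serum/-LIF library, and 10 and 30 reads with Royalactin. With 3 reads put in place of 0 in each serum/-LIF library, 4.01 and 3.11 normalized counts, its mean was 4.31-fold higher with Royalactin. This ratio leaves out the counting error of the Royalactin reads and the spread between libraries. Epha3 had 3 and 10 reads in serum/-LIF and 0 in both Royalactin libraries, and Robo4 had 0 in serum/-LIF and 2 and 11 reads with Royalactin.

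**Figure D3:**
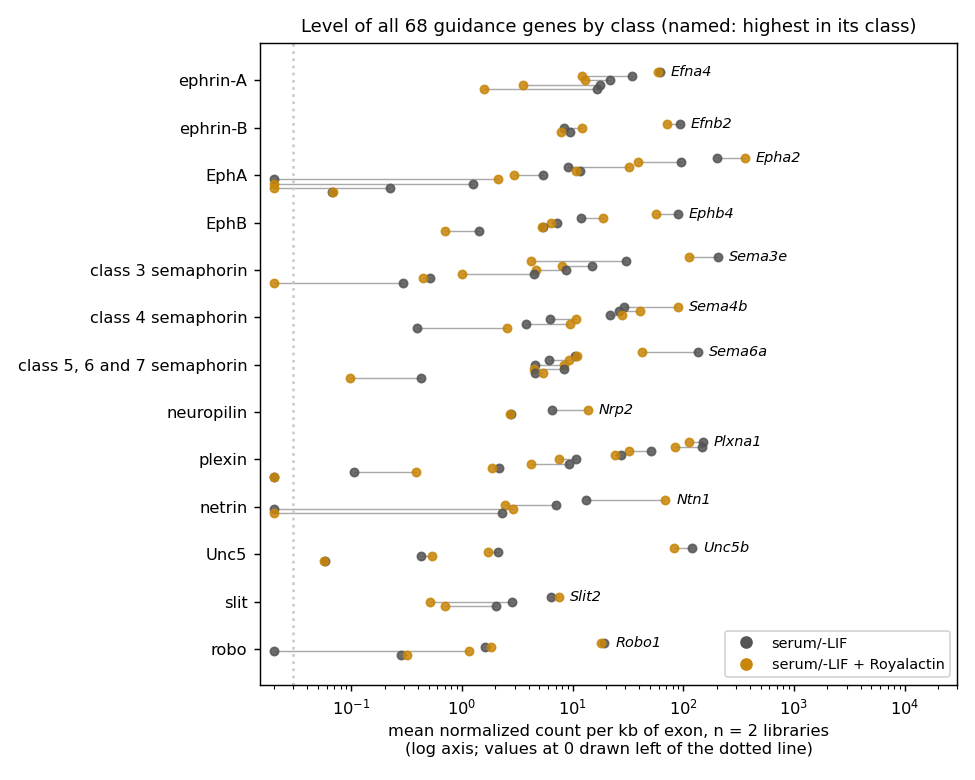
Mean normalized count per kilobase of exon (n = 2 libraries, log axis) of all 68 guidance genes by class, in serum/-LIF (grey) and serum/-LIF + Royalactin (orange), with means at 0 drawn left of the dotted line. The highest gene of each class is named, and Epha2 stands at 201 and 357.

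Levels differed within and between the families. In the mean over the 4 libraries, the highest slit, Slit2, was at 6.97 normalized counts per kb. The highest neuropilin, Nrp2, was at 10.2 and the highest robo, Robo1, at 18.8. Per kilobase of exon, the highest means over the 4 libraries were those of Epha2 (279 normalized counts per kb), Sema3e (160), Plxna1 (131), Plxnb2 (115) and Unc5b (102), followed by Sema6a (89.8), Efnb2 (81.8), Ephb4 (72.9) and Epha1 (67.0). In serum/-LIF, Sema3e stood at 208 and Epha2 at 201, whereas with Royalactin they stood at 113 and 357. The tested guidance genes were weaker than tested genes in general, with a median normalized count of 77.5 against 243. A mean under 50 was found for 22 of the 49 (44.9%), against 20.8% of all tested genes.

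The tested guidance genes also had longer and more GC-rich exons, with medians of 5.93 kb and 56.5% GC against 3.75 kb and 49.8% over all tested genes with a gene model. The 75 promoter windows of guidance genes, tested or not, held a median of 15 CpG dinucleotides, against 6 over all windows. The difference between replicates had a larger median in these weaker genes. The median absolute log2 difference between the serum/-LIF replicates was 0.96 for the 49 and 0.57 for all tested genes, and between the Royalactin replicates 0.59 and 0.39. In serum/-LIF, 38 of 49 were higher in replicate 1 than in replicate 2 (77.6%), against 51.4% of all tested genes. This library held the largest share of Rn45s, 46.6%. Exon GC content and the log2 difference of the serum/-LIF replicates had a Pearson correlation of 0.30 across the 49 genes. Their Spearman correlation was 0.18. Over the 12732 tested genes with a gene model the Pearson correlation was 0.26. Each is a description over genes that share these 2 libraries.

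**Figure D4:**
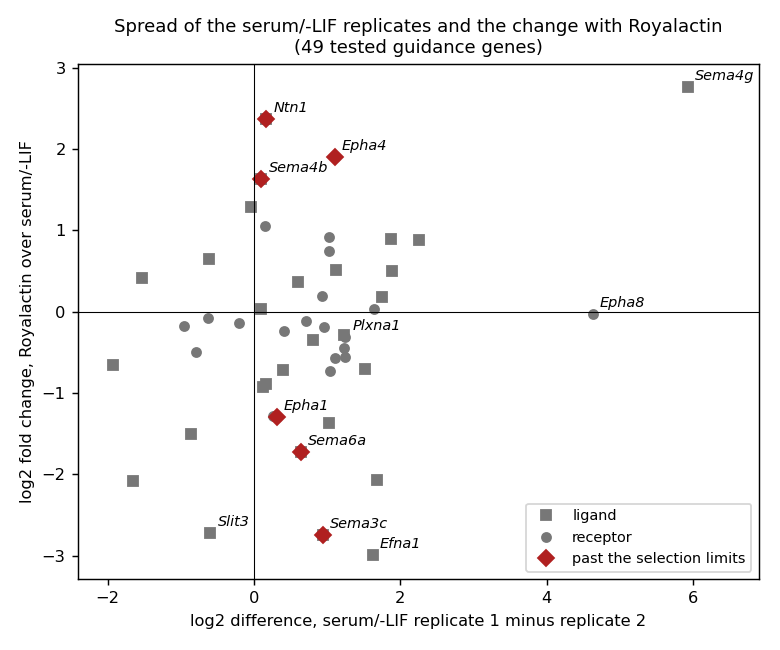
Log2 difference between the serum/-LIF replicates (horizontal) and log2 fold change with Royalactin (vertical) of the 49 tested guidance genes. Squares are ligands, circles receptors and red diamonds the 6 genes past the selection limits, and 38 of the 49 points lie right of 0 on the horizontal axis.

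Correction of each library for GC content and exon length, chosen with these results known, left the 6 genes past the limits and added Efna5. Past the limits after this correction were 7.76% of all tested genes. With the correction, Ntn1, Sema3c, Sema4b and Sema6a had limma adjusted p-values under 0.05, whereas the number over all tested genes went from 64 to 248. The log2 fold change of Ntn1 was 2.26 to 2.45 over the 15 alternatives, that of Sema3c -3.22 to -2.28, that of Sema4b 1.51 to 1.71 and that of Sema6a -2.21 to -1.24. These 4 genes passed the selection limits under each of the 15 alternatives. Epha1 and Epha4 did so under 13 of 15.

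**Figure D5:**
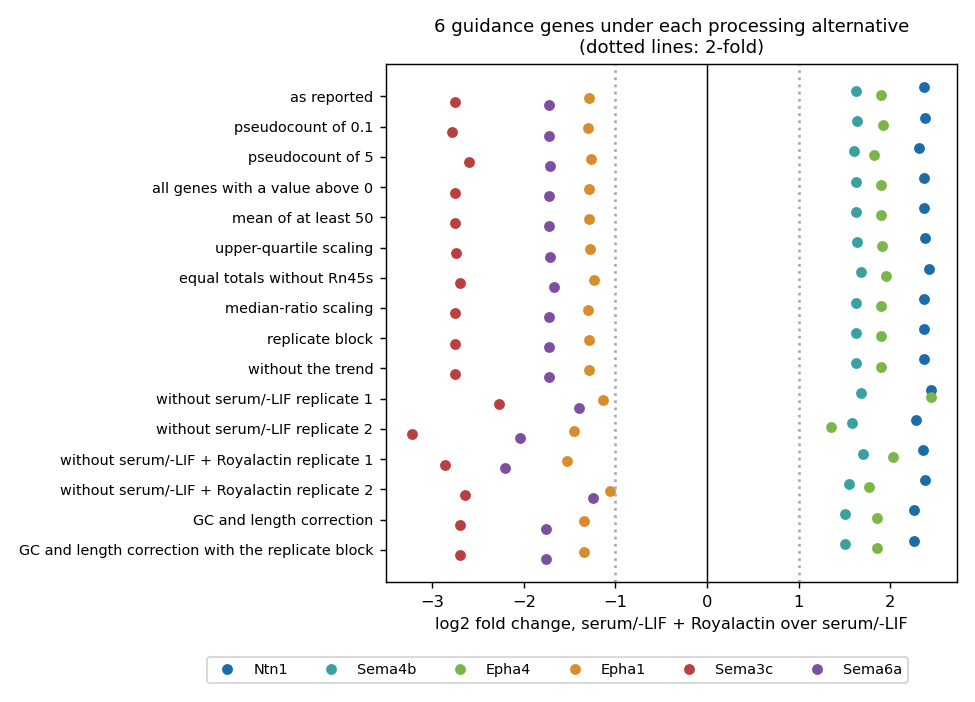
Log2 fold change of the 6 guidance genes past the selection limits as reported and under each of the 15 processing alternatives, with dotted lines at a 2-fold change. No gene changes sign, which is fixed with 1 library left out, because the groups of these genes do not overlap. The replicate block and the fit without the trend leave the log2 fold change as it is. The widest ranges are those of Epha4 (1.35 to 2.45), Sema3c and Sema6a.

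The intracellular partners and co-receptors of these systems were taken from a list of 93 genes, of which 84 were tested. The selection limits were passed by 7 (8.33%, against 7.13% of all tested genes), 3 higher and 4 lower, and an adjusted p-value under 0.05 by 0. The unadjusted limma p-value was under 0.05 for 8 of the 84, against 9.34% of all tested genes. The higher genes were Enah, an actin regulator of the Ena/VASP family, with 1700 and 1733 normalized counts in serum/-LIF and 4551 and 3225 with Royalactin (log2 fold change 1.16), Mical1, an actin-oxidizing enzyme downstream of plexins, with a log2 fold change of 2.00, and Dpysl3, a CRMP protein of the semaphorin pathway, with 1.59. The lower genes were Met, the receptor of hepatocyte growth factor that can associate with plexins (-1.57), Flt1, a VEGF receptor (-1.79), Grip1, a scaffold for ephrin-B proteins (-1.46), and Vav3, an exchange factor downstream of Eph receptors (-2.34). Kdr, another VEGF receptor of the list, did not pass the limits but went the other way (log2 fold change 4.13, standard error 1.96). It had 1 and 0 reads in serum/-LIF and 31 and 31 with Royalactin. The groups did not overlap in 41 of the 84 (48.8%), against 38.6% of all tested genes. The 7 were among these, which their choice by p-value and fold favours. Of the 7, Dpysl3 and Enah lost the limits under 1 of 15 alternatives, Met and Mical1 under 2, Flt1 under 4, Grip1 under 6 and Vav3 under 9 of the 14 that tested it.

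Markers of cell types were measured in the same libraries. Of all tested genes, 3.52% passed the selection limits in the higher and 3.61% in the lower direction. The 10 pluripotency markers had a summed level of 15433 to 17299 normalized counts in serum/-LIF and 28284 to 34158 with Royalactin, and 6 of 10 were past the limits and higher. The highest of the 10 in every library, Dppa5a and Pou5f1, did not pass the limits (log2 fold changes 0.76 and 0.25). Smooth muscle markers summed to 2638 to 3155 in serum/-LIF and 301 to 435 with Royalactin, with 3 of 5 tested genes past the limits and lower. Most of this sum in serum/-LIF was Tagln, at 1896 and 2525 normalized counts. Des and Lmod1 did not pass the limits (log2 fold changes -0.08 and 1.88). Myh11 and Myocd were below the filter, at no more than 13.5 normalized counts in any library. Trophoblast markers summed to 1799 to 1827 and 531 to 913 (2 lower, Krt8 and Krt18, and 1 higher, Tfap2c, of 4 tested, Elf5 at 0). Most of this sum in serum/-LIF was Krt8 (883 and 897 normalized counts) and Krt18 (732 and 731). Eomes did not pass the limits (log2 fold change -0.41), and Cdx2, Gata3 and Hand1 were below the filter. Endothelial markers summed to 209 to 392 and 877 to 882 (2 higher of 3 tested, Emcn at 0). Most of the endothelial sum was Pecam1, at 221 and 138 normalized counts in serum/-LIF and 638 and 584 with Royalactin. The 3 tested genes, Pecam1, Tek and Cldn5, had higher means with Royalactin. Below the filter, Cdh5 and Tie1 had lower means (11.4 to 1.38 and 17.7 to 0.69), and Esam and Vwf higher ones. Fibroblast markers summed to 94.2 to 164 and 69.5 to 97.6, with Fap, Pdgfrb and Postn at 0 in all libraries and 1 of 3 tested genes lower. Neural markers summed to 1426 to 2049 and 2273 to 2570 and primitive endoderm markers to 2026 to 3371 and 2764 to 3180, with 0 past the limits in either list. The part of other cell types in the guidance gene differences was not tested.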

How the data were processed

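Reads were aligned by the authors with Tophat to mm9 (at most 2 mismatches) and assigned to genes with HTSeq-count. The authors then normalized these counts with DESeq size factors and deposited the quotients, a signal proportional to reads. The counting annotation and strand setting are not given in the sources used here. All 4 columns of values were mapped by name, and 100% of values are whole multiples of 1 step per library within 0.01 of a read. Dividing by it gave read numbers. Because 1 Royalactin library (replicate 1) has a step of 1.01, close to 1, all values were treated as normalized and no count test was run.

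Differences were tested with limma 3.58.1 in R 4.3.3 (trend of the variance, two-sided), for genes with a mean of at least 10. Exon lengths, GC content and positions are from GENCODE vM1 on mm9, for 12732 of the tested genes and all 68 guidance genes. Exon tiles were mapped with minimap2 2.31-r1302. The fit was also run on simulated data that gave all genes and libraries the same dispersion, which these libraries need not share. No result here rests on it. The members, lists, rules and alternatives were chosen with earlier results of these data known. Genes given in every library are those past a limit, the highest per kilobase in each class and the 5 largest non-overlapping changes, with further members described by their values. ATAC-seq samples were not analysed here.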

Additional observations from a re-analysis of the deposited data

How the results depend on the processing

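The number of guidance genes past the selection limits, 6 as reported, was 11 without the trend of the variance (8.30% of all tested genes) and 4 to 13 with each library left out (3.29% to 14.8% of all), and stayed within 1.5 times under the remaining alternatives. The number with a limma adjusted p-value under 0.05 (1 as reported, 64 over all genes) was 0 and 32 with a pseudocount of 0.1 (8 guidance genes at an unadjusted p-value under 0.05), 2 and 86 with 5, 0 and 34 over all genes with a value above 0 (9 at an unadjusted p-value under 0.05), 2 and 99 at a mean of at least 50, 4 and 248 after GC and length correction, and 9 and 798 with that correction and the replicate block. Without the trend both were 0, where 11 guidance genes and 1135 of all genes had an unadjusted p-value under 0.05, and with any library left out both were 0 (4 to 14 guidance genes and 428 to 2496 of all genes at an unadjusted p-value under 0.05). Guidance genes whose groups do not overlap, 21 as reported, numbered 11 of 27 tested at a mean of at least 50 (38.4% of all genes), and 31 to 38 with 3 libraries (61.5% to 78.9% of all), where fewer values can overlap. The median log2 fold change of the tested guidance genes ranged from -0.67 to 0.072 with each library left out, with the value above 0 without serum/-LIF replicate 1. Of the 49 genes, 10 and 12 changed sign without the serum/-LIF replicates 1 and 2, and 9 and 4 without the Royalactin replicates. For the highest genes of their classes that changed sign, log2 fold changes ranged from -0.90 to 0.34 for Efnb2, -1.17 to 0.072 for Ephb4, -0.94 to 0.31 for Plxna1, -0.91 to 0.53 for Robo1, -0.36 to 1.17 for Slit2, -1.06 to 0.17 for Unc5b and -0.69 to 1.06 for Efna4. Genes of the intracellular and co-receptor list past the limits ranged from 3 to 10 with each library left out. The cause was not tested.

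Samples share only a replicate number, whose deviations from the group means had a correlation of 0.0851 between groups. With the replicate block 5 guidance genes (Epha4, Ntn1, Sema3c, Sema4b and Sema6a) and 391 of all genes had a limma adjusted p-value under 0.05. The selection limits were then passed by 8 guidance genes, against 7.95% of all tested genes.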
